A study of Mus musculus with 2 samples.

Results

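Chemokines are small secreted proteins that draw leukocytes along a gradient. The chemokine ligands studied here were Ccl3, Ccl4, Ccl5, Ccl6, Ccl9, Cxcl2, Cxcl10, Cxcl16, Ppbp and Pf4, taken as every probe set annotated to these names. The 10 genes had 13 probe sets, of 18193 genes and 45037 probe sets that were not controls on each array. They were measured in bone marrow neutrophils of mice labelled Jdp2 KO (Jdp2-/-) and of mice labelled Jdp2 WT. Both groups had a C57BL/6 /129/J mixed background, per the labels, and the sort took CD11b+ Ly6G+ cells with low Ly6C. Each genotype was represented by 1 Affymetrix array, so the spread between mice is unknown, no p-value was computed, and precision is limited by the small number of arrays. The labels do not state age, sex or whether RNA was pooled over mice.

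Chemokines are named by the spacing of their first cysteines, CC for the Ccl genes and CXC for the Cxcl genes, Ppbp and Pf4, and they act through receptors coupled to G proteins. Neutrophils respond to chemokines through Cxcr2 and Ccr1 and also release some themselves when activated. Many chemokine genes are induced by NF-kB, and a few by interferons. Jdp2, a partner of Jun proteins, binds AP-1 and CRE sites through its leucine-zipper domain and mostly represses the genes it binds.

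The comparison asked which transcripts differ between neutrophils of the genotypes. Values are RMA signals on the log2 scale, and differences are the KO array minus the WT array. The array medians over all probe sets were 5.67 for KO and 5.65 for WT. A gene was counted when the higher of its values reached the median of its array, and where a gene had several probe sets, the one with the highest mean stood for it. Jdp2 itself read 12.38 on the KO array and 11.997 on the WT array, and its second probe set read 5.40 on the KO array and 5.24 on the WT array. Which part of Jdp2 was deleted, and whether these probes lie in it, is not stated in the labels, so the targeted gene does not check the labels, and directions refer to the arrays as labelled. Of the 12 neutrophil markers listed, 10 were measured and all 10 passed, within 2-fold of each other between arrays (median difference -0.06). Ly6g, the gene for the sorted antigen, was not analysed here.

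Most of the chemokine genes read higher on the KO array. Of the 9 that passed the level filter, 8 had a difference above 0 and 5 were at least 2-fold higher: Ppbp, Pf4, Ccl9, Ccl4 and Cxcl2. None was at least 2-fold lower. Among all 11168 genes that passed, 3.06% were at least 2-fold higher and 2.33% at least 2-fold lower. The chemokine genes were chosen with earlier results of these data known, so these counts and shares are no test of the family. The median difference of the 9 genes was 1.11, against -0.04 over all genes that passed, of which 44.8% lay above 0. The tenth gene, Ccl5, read below the median on both arrays. The 9 genes each had both values at or above the median of the array, so none of their folds rests on a value below it. Large differences were rarer among genes with strong signal. Where at least 1 value reached the 75th percentile of its array, 1.75% of 6298 genes were at least 2-fold higher and 1.38% at least 2-fold lower, and the same 5 chemokine genes were among 7 counted. At a smaller size of 1.5-fold, Ccl3 and Cxcl10 joined the higher genes and Cxcl16 was lower, in all 7 higher and 1 lower, where 8.49% of all genes were higher and 8.86% lower.

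**Figure D1:**
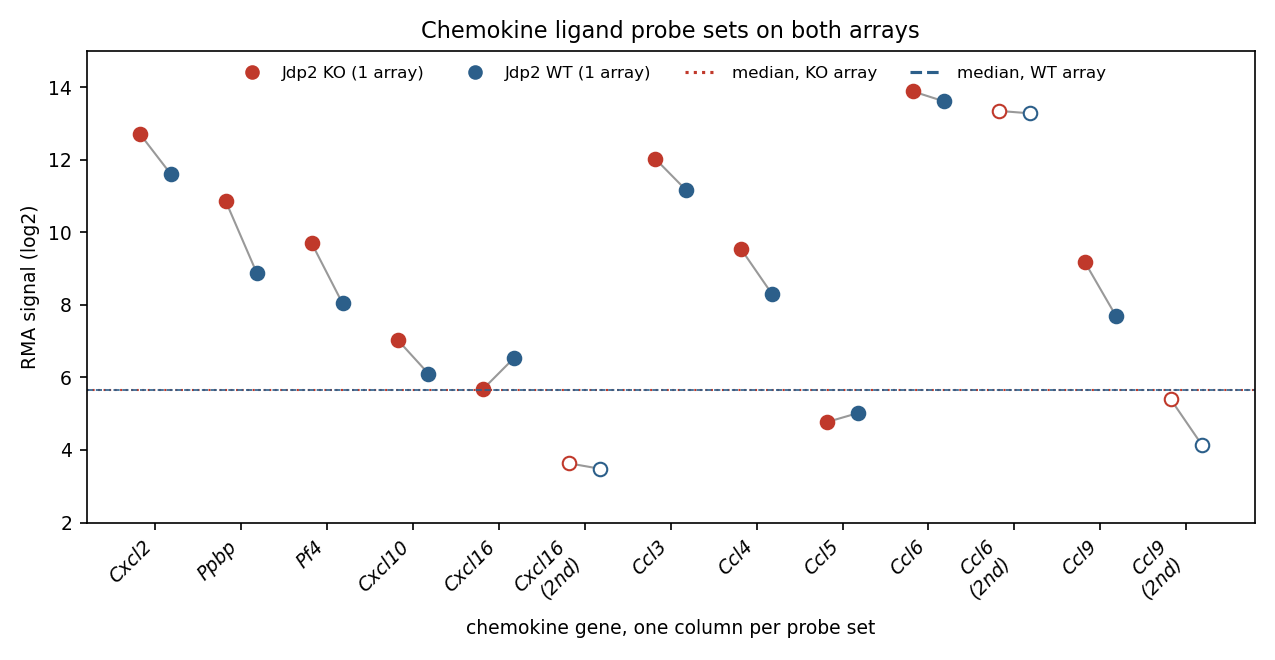
RMA signal (log2) of the 13 chemokine probe sets, one column per probe set, with the KO array left and the WT array right in each. Filled points are the probe set that represents the gene, open points a second probe set, and the lines near 5.67 and 5.65 are the array medians. Ppbp, Pf4, Ccl9, Ccl4 and Cxcl2 drop by at least 1 unit to the right, Ccl6 lies near the top of the scale, Cxcl16 runs the other way and Ccl5 lies under the medians.

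Promoter sequences were at hand for 7 of the 10 genes, from RefSeq on build GRCm38.p6, all but Ccl4, Ccl5 and Cxcl16. The 250 bases before the annotated start were searched on both strands for AP-1 (TGANTCA), CRE (TGACGTCA), the NF-kB consensus, an interferon response core (GAAANNGAA), C/EBP (TTGCNNAA) and the GATA factor letters AGATAA, and on the gene's own strand for the core promoter letters TATAAA. The 4 below are shown because together they hold most of the matches, so they do not represent the 7. All 7 genes read higher on the KO array, also Ccl3, Ccl6 and Pf4, whose windows are not shown. Capitals mark the matches.
Cxcl2, chr5:90903649-90903898, plus strand: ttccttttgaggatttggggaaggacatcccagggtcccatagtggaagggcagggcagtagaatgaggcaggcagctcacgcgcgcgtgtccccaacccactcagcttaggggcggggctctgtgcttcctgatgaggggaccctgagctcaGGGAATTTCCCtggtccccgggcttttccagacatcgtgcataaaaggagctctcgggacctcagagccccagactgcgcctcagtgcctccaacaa
Ppbp, chr5:90768268-90768517, plus strand: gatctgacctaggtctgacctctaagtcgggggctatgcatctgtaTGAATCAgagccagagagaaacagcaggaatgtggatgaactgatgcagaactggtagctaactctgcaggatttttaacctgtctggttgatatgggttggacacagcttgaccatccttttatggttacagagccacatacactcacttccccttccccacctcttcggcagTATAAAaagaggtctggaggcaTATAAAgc
Cxcl10, chr5:92348890-92349139, minus strand: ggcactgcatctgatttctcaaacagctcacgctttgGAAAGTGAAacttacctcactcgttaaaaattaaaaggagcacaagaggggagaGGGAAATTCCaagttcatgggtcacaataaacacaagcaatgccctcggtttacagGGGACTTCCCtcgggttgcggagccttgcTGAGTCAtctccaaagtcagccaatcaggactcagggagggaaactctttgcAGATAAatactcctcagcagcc
Ccl9, chr11:83578637-83578886, minus strand: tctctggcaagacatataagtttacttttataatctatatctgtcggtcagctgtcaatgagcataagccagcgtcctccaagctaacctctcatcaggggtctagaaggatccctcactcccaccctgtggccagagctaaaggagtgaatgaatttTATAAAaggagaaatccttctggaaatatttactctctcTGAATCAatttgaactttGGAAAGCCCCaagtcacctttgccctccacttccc

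The NF-kB consensus matched in the windows of Cxcl2, Cxcl10 and Ccl9, and in 3.90% of 32851 mouse promoter windows of the same length. In Cxcl2 it matched on both strands, at 97 and 96 bases before the start, as overlapping matches. In Cxcl10 it matched at 159 and 103 bases, and in Ccl9 on the opposite strand at 35 bases. The AP-1 letters were searched with any base in the middle, which is looser than the usual site with C or G there. In this loose form they matched in Ccl9, Cxcl10 and Ppbp and in 6.75% of all windows. Only the Cxcl10 match, TGAGTCA at 74 bases before the start, has the usual form. The matches in Ccl9 and Ppbp read TGAATCA, at 53 and 204 bases. CRE letters were found in none of the 7 windows and in 1.55% of all windows. The interferon response core matched in Cxcl10 at 213 bases and, on the opposite strand, in Ccl3 at 39 bases, and in 7.13% of all windows. TATAAA was found in Ppbp at 30 and 8 bases and in Ccl9 at 92 bases, and in 7.59% of all windows. The C/EBP letters matched in Pf4 (9.56% of all windows) and the GATA letters in Cxcl10, at 22 bases (9.99% of all windows). The window of Ccl6 held none of these letters. A match is a description of the sequence and not a binding site.

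The neutrophil attractant Cxcl2 (MIP-2), a ligand of Cxcr2, read 12.71 on the KO array and 11.61 on the WT array (probe set 1449984_at). Its difference was 1.11, or 2.16-fold, and 245 of the 11168 genes had a larger one. This is the gene whose window above holds a single stretch that matches the NF-kB consensus on both strands.

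Ppbp encodes the precursor of platelet basic protein, which proteases trim to the Cxcr2 ligand NAP-2. It read 10.86 on the KO array and 8.89 on the WT array (1418480_at). The difference of 1.97, or 3.92-fold, was the largest of the 10 genes, and 24 of all genes exceeded it. Pf4, platelet factor 4, is stored with Ppbp in the alpha granules of platelets and binds heparin. It read 9.70 on the KO array and 8.04 on the WT array (1448995_at), a difference of 1.66 or 3.16-fold that 57 genes exceeded. Both are classical megakaryocyte transcripts, so the other markers of that lineage are given here. Of the 12 listed without Pf4 and Ppbp, 10 were measured, 7 passed, 5 of these were above 0 and 1 was at least 2-fold higher. Their median difference was 0.23. The summed linear signal of all 10 measured was 3553 on the KO array and 3352 on the WT array, a ratio of 1.06. The glycoprotein genes Gp1bb (1.09) and Gp9 (0.76) had the largest differences, and Clec1b (0.25), Treml1 (0.23) and the platelet tubulin gene Tubb1 (0.12) smaller ones. The integrin genes Itgb3 (-0.20) and Itga2b (-0.34) were below 0, although a weaker probe set of Itgb3 under the median was at 0.52, and Gp5, Gp6 and Vwf read under the median on both arrays. Of these platelet genes, Gp1bb alone passed 2-fold, and its second probe set differed by 0.85. Whether platelet RNA has a part in the Ppbp and Pf4 difference was not tested, and more such RNA per cell cannot be told apart from more cells that carry it.

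Cxcl10 (IP-10), an interferon-induced attractant of T cells through Cxcr3, read 7.04 on the KO array and 6.10 on the WT array (1418930_at). The difference of 0.94, or 1.91-fold, fell just short of 2-fold, and 3.62% of all genes reached it. Cxcl16 is made as a transmembrane protein that can be shed, and it binds Cxcr6. It was the only gene of the 9 that read lower on the KO array, with 5.69 on the KO array and 6.54 on the WT array (1418718_at), a difference of -0.85. The KO value was only just above the array median of 5.67. Its second probe set (1449195_s_at) read 3.63 on the KO array and 3.48 on the WT array, a difference of 0.15 with both values under the median, so the 2 probe sets did not point the same way.

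Ccl3 (MIP-1 alpha) and Ccl4 (MIP-1 beta) attract monocytes and T cells. Ccl3 read 12.02 on the KO array and 11.16 on the WT array (1419561_at), a difference of 0.87 or 1.82-fold. Ccl4 read 9.53 on the KO array and 8.30 on the WT array (1421578_at), a difference of 1.24 or 2.36-fold. Both neighbours were higher, but only Ccl4 passed 2-fold. The difference of Ccl3 was reached by 4.38% of all genes and that of Ccl4 by 1.46%. Ccl5 (RANTES), a product of T cells, NK cells and platelets among others, read 4.77 on the KO array and 5.02 on the WT array (1418126_at). Both values lie under the array medians, where RMA signal holds background as well, and no fold is given.

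Ccl6 and Ccl9 are CC chemokines found in rodents, made by myeloid cells and able to act through Ccr1. Ccl9 read 9.18 on the KO array and 7.70 on the WT array (1417936_at), a difference of 1.48 or 2.78-fold that 95 genes exceeded. Its second probe set (1448898_at), with both values under the array medians, read 5.40 on the KO array and 4.15 on the WT array and pointed the same way, at 1.25. Ccl6 read 13.88 on the KO array and 13.61 on the WT array with 1417266_at, a difference of 0.27. With 1420249_s_at it read 13.34 on the KO array and 13.28 on the WT array, a difference of 0.07. These Ccl6 signals lay at or above the 99.5th percentile of their arrays, whose highest values were 14.56 (KO) and 14.54 (WT), where array signal can compress differences. Chemokine genes that resemble each other can share hybridisation, which was not tested.

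**Figure D2:**
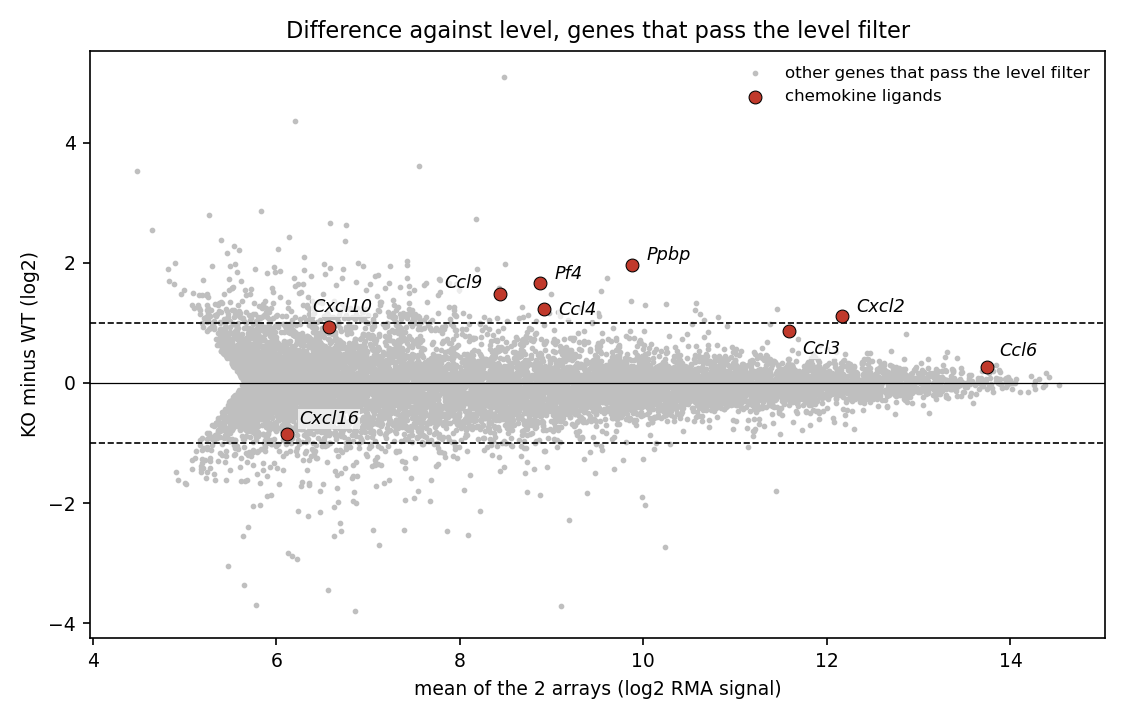
Difference (KO minus WT, log2) against the mean of both arrays for the 11168 genes that passed the level filter, in grey, with the 9 chemokine genes that passed in red. Dashed lines mark 2-fold. Ppbp at 1.97 and Cxcl2 at 1.11 lie above the upper dashed line, Ccl6 at 0.27 lies at high signal where few genes differ, and Cxcl16 is the only red point below 0.

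Many of these genes sit side by side on the reference. On chromosome 5 the protein-coding order from Cxcl5 to Cxcl2 is Cxcl5, Ppbp, Pf4, Cxcl3, Cxcl15, Cxcl1 and Cxcl2. Ppbp, Pf4 and Cxcl2 were each at least 2-fold higher, while the other 4 read under the array median on both arrays. Cxcl1, which like Cxcl2 binds Cxcr2, read 5.33 on the KO array and 4.84 on the WT array. Cxcl3 read 3.61 on the KO array and 3.21 on the WT array, and Cxcl5 read 2.77 on the KO array and 2.80 on the WT array. The probe sets of these neighbours thus gave no signal above the median on either array. On chromosome 11 the order is Ccl5, Ccl9, Ccl6, Ccl3 and Ccl4. Here Ccl6, with a difference of 0.27, lies between Ccl9 (1.48) and Ccl3 (0.87), so the measured differences of direct neighbours were unequal. The Ccl6 signal is near the top of the arrays, where differences can be compressed, so its true difference may be larger.

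**Figure D3:**
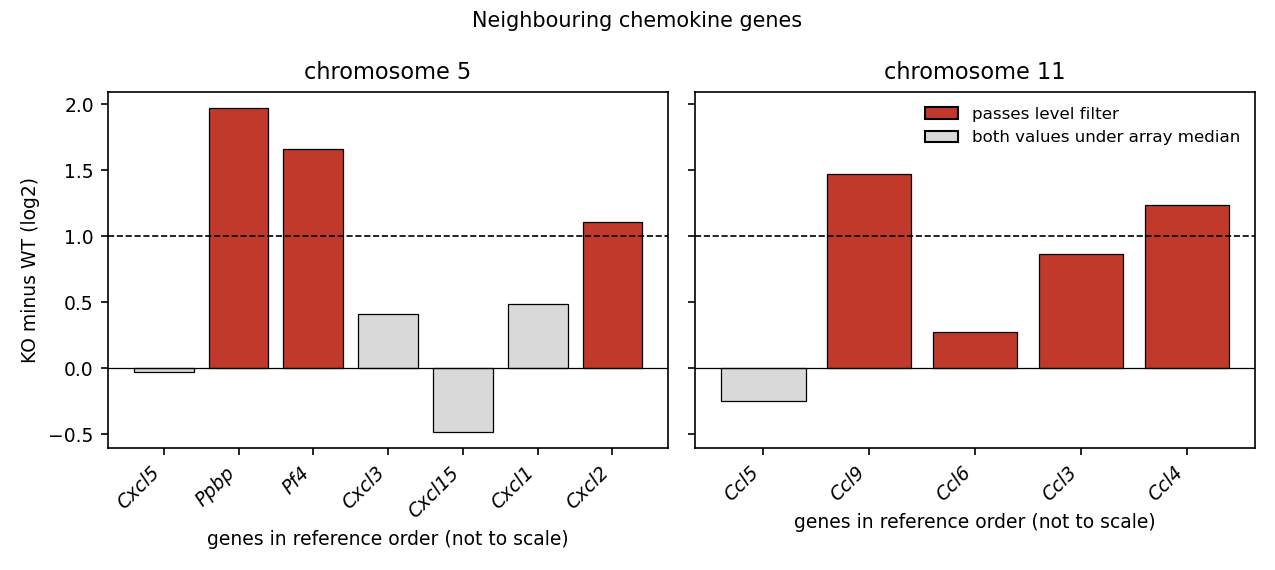
Difference (KO minus WT, log2) of neighbouring chemokine genes on chromosomes 5 and 11, in reference order and not to distance, with red bars for genes that passed the level filter and grey bars for genes with both values under the array median. The dashed line marks 2-fold higher. Ppbp, Pf4 and Cxcl2 stand above it among neighbours without signal above the median. The bar of Ccl6 is low between Ccl9 and Ccl3, at a signal so high that differences can be compressed.

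Of 27 other chemokine ligands listed, 25 were measured and 9 passed the level filter. None of these 9 reached 2-fold in either direction, 7 lay above 0, and their median difference was 0.33. For this list and those that follow, the shares over all genes that passed were 3.06% at least 2-fold higher and 2.33% lower. A count of none in a short list is therefore close to what all genes show. The largest was that of Ccl2 (MCP-1), the main attractant of monocytes through Ccr2, with 8.28 on the KO array and 7.38 on the WT array, or 0.90. Cxcl9 and Cxcl11, which share Cxcr3 with Cxcl10, differed by 0.43 and 0.59. The lower value of Cxcl11 lay under the array median. The lymphoid tissue chemokines Ccl25 and Cxcl13 both differed by 0.33 and Ccl17, a ligand of Ccr4, by 0.35. Cx3cl1 (0.03) and Ccl28 (-0.01) were closest to 0, and Cxcl14 differed by -0.56 with its KO value under the median. The other 16 read under the median on both arrays.

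The receptors are listed next, since ligand and receptor act as a pair. Of 23 receptors listed, 21 were measured and 11 passed, with 3 at least 2-fold higher, none at least 2-fold lower and a median of 0.24. Over the 9 with both values at or above the median of the array, 2 were at least 2-fold higher and the median was 0.05. Cxcr2, the receptor for Cxcl2 and processed Ppbp, read 12.74 on the KO array and 12.50 on the WT array, a difference of 0.24. Ccr1 read 12.55 on the KO array and 12.22 on the WT array (0.33), and its second probe set differed by 0.09. The main probe sets of these neutrophil receptors differed by at most 0.33. Cxcr3 differed by 0.01, Cxcr4, which holds neutrophils in the marrow, by 0.05, and the scavenger Ackr1 by 0.01. Cxcr6, the receptor of Cxcl16, read under the median on both arrays. The 3 past 2-fold were Ccr3 (1.13), the chemerin-binding Ccrl2 (1.10) and Ccr2 (1.07). Ccr2 is a monocyte marker and Ccr3 an eosinophil marker. The fold of Ccr3 was 1.19 when its WT value was set to the array median, and the 4 probe sets of Ccr2 ran from -0.02 to 1.07.

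Among 9 genes listed for chemokine cleavage and storage, 3 were at least 2-fold higher, none was at least 2-fold lower and the median was 0.13. Over the 7 with both values at or above the array median, 1 was higher and the median was -0.03. Those 3 were proteases of primary granules. Elane (3.62) encodes neutrophil elastase, Ctsg (4.36) cathepsin G, which can trim the Ppbp product, and Prtn3 (2.86) proteinase 3. For Ctsg and Prtn3 the WT value was under the median of its array, and set to that median it gave folds of 6.64 and 3.06. The WT value of Elane, 5.75, lay only just above that median of 5.65. Adam10 (-0.03) and Adam17 (0.13), which shed membrane-bound chemokines such as Cxcl16, lay within 2-fold, as did the collagenase gene Mmp8 (-0.07), the gelatinase gene Mmp9 (-0.10) and the storage proteoglycan gene Srgn (0.21). Dpp4, which clips several chemokines, differed by -0.27, although its 3 weaker probe sets, with both values under the array median, ran from 0.11 to 1.16.

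Markers of monocytes and macrophages, which make several of these chemokines, were higher on the same array. The sort took Ly6G+ cells with low Ly6C. Of 16 listed, 15 were measured and 14 passed, 11 of them at least 2-fold higher, with a median of 1.21. However, 6 of the 14 passed through the KO array alone, and with WT values under the median raised to it, a step chosen after seeing the data, 7 were at least 2-fold higher. The 8 with both values at or above the median had a median difference of 1.12, and 6 of them were at least 2-fold higher. The summed linear signal of all 15 measured markers was 10814 on the KO array and 6543 on the WT array, a ratio of 1.65. That sum includes values under the median, and only Lgmn read under the median on both arrays. Adgre1 (F4/80) read 9.95 on the KO array and 8.70 on the WT array, and Ctss read 11.24 on the KO array and 9.91 on the WT array. Csf1r (0.27) and Cd68 (0.23) lay within 2-fold. Where a marker had several probe sets, they did not always point the same way. Fcgr1 was at 1.24 and -0.47, Ms4a6c at 1.69 and 0.15, and Cx3cr1 at 0.25 and -0.69. The lowest for Ccr2 was -0.02, while C1qb ran from 1.17 to 1.29 and Csf1r from 0.27 to 0.39. The summed linear signal of the 10 chemokine genes was 30169 on the KO array and 19331 on the WT array, a ratio of 1.56. Most of that sum was Ccl6, and without it the sum was 15099 on the KO array and 6854 on the WT array, a ratio of 2.20. The part of such cells in the differences of Ccl3, Ccl4, Ccl9, Cxcl2, Cxcl10 and Pf4 was not tested.

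Markers of lymphocytes and other cells that a sort could hold were counted in the same way. Summed signal covers all measured genes of a list, also those that did not pass. The median was 0.28 for T and NK cell markers (6 passing, 0 at least 2-fold higher, summed signal 2432 on the KO array and 2213 on the WT array). It was 0.48 for B cell markers (4 passing, 1 higher, 667 on the KO array and 651 on the WT array). The higher B cell gene was Igll1, whose WT value lay under the median. Raised to it, the fold was 1.60, and the other probe set of Igll1 differed by 0.06. Eosinophil, basophil and mast cell markers had a median of 0.78 over 2 passing genes (1 higher, 671 on the KO array and 484 on the WT array). The count and the median there rest on Ccr3, described above as 1.19-fold with its WT value raised, and the other gene, Siglecf, differed by 0.43. Dendritic cell markers had a median of 0.07 over 5 (1 higher, 1145 on the KO array and 866 on the WT array). The higher gene was Cd74 (1.09), with 8.95 on the KO array and 7.86 on the WT array, both above the median. H2-Eb1 differed by 0.97, and 2 of the 5 were below 0. No gene of these 4 lists was at least 2-fold lower.

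**Figure D4:**
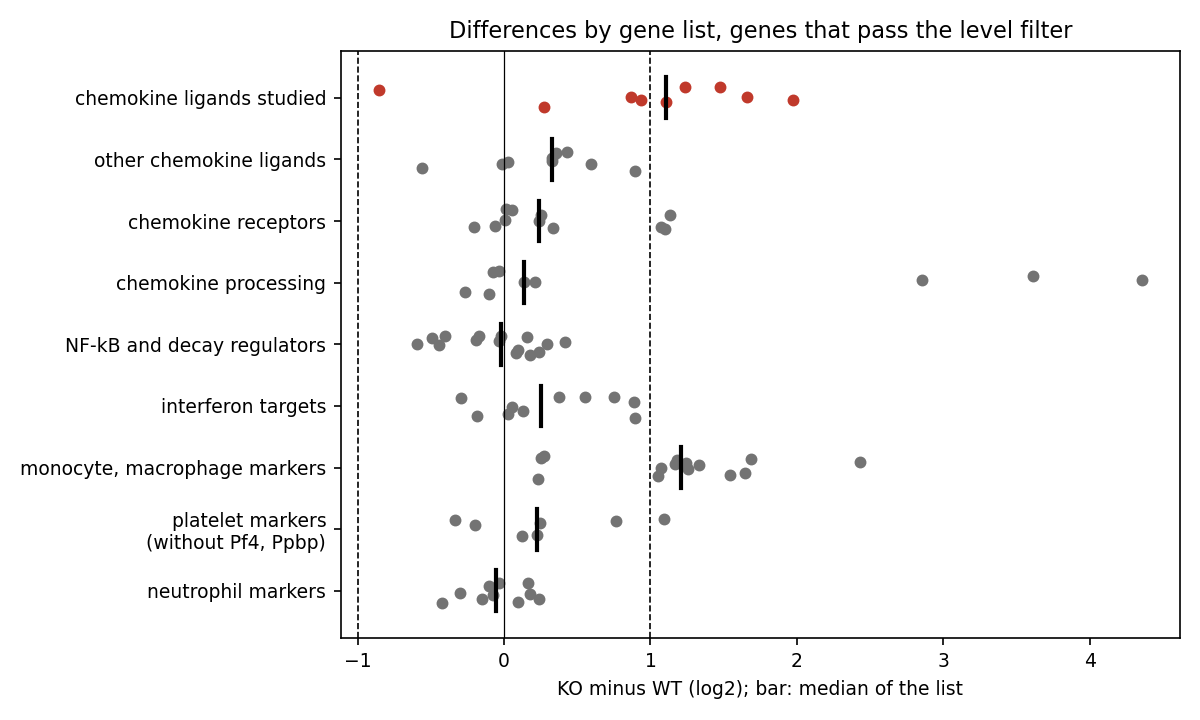
Differences (KO minus WT, log2) of the genes that passed the level filter in each list, 1 point per gene, with a black bar at the list's median and dashed lines at 2-fold. The chemokine genes studied, in red, have a median of 1.11, monocyte and macrophage markers 1.21 (1.12 over the 8 with both values at or above the median), other chemokine ligands 0.33, receptors 0.24, platelet markers without Pf4 and Ppbp 0.23 and neutrophil markers -0.06.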

How the data were processed

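Total RNA of 1 group labelled Jdp2 KO and 1 labelled Jdp2 WT was biotin-labelled and hybridised to 1 array each, per the labels' protocols. The deposited values are log2 summaries per probe set, for which the submitters' processing notes name RMA without a version. Sorted by size, the columns differed by at most 0.117, which shows nearly equal distributions.

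Of 45037 probe sets without the 64 controls, 34945 had 1 gene symbol in the platform annotation, 932 several and 9160 were not listed, and only the first were named. Symbols were updated by Entrez identifier against RefSeq genes of GRCm38.p6 (34741 matched). The files name no build, so gene coordinates were not used, only the order of neighbours, and the promoter windows carry their own build. Each gene took its probe set with the highest mean, and passed where its higher value reached the median of its array (11168 of 18193 genes). With 1 array per group there is no test, and differences were counted past a fixed size of 2-fold, as a linear ratio. Summed linear signal is the sum of 2 to the power of the log2 values of a list's measured genes.

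The members and all lists (other chemokine ligands, receptors, cleavage and storage, NF-kB and decay regulators, interferon targets and 7 sets of cell markers) were chosen with earlier results of these data known. All members were named, with every other ligand that passed, the receptors of members, and up to 4 genes of the other lists by size of difference; further genes named were chosen after their values were seen. Counting was tested on simulated arrays. Alternatives were other level filters, 3 scalings, other probe set summaries and a 1.5-fold size. Python 3.11.15, pandas 2.3.3 and statsmodels 0.14.6 were used.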

Additional observations from a re-analysis of the deposited data

How the results depend on the processing

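The count of chemokine genes at least 2-fold higher was 5 under every other filter, scaling and probe set summary tried. At 1.5-fold it was 7, and 1 was lower. Over the 5 scalings and summaries no gene changed sign or side of 2-fold. The widest range was that of Cxcl16, from -0.87 to -0.35, the last with the mean of its probe sets. Ccl6 ran from 0.17 to 0.27, Ccl9 from 1.36 to 1.56 and Cxcl2 from 1.09 to 1.11. Counts over all genes moved more. They were 110 higher and 87 lower with the 75th percentile filter, 184 higher and 145 lower with both values at the median, 183 higher and 171 lower with the mean of probe sets, and 948 higher and 989 lower at 1.5-fold, against 342 higher and 260 lower as reported. Monocyte and macrophage markers at least 2-fold higher numbered 7, against 11, with low values raised to the array median, an alternative added after seeing the data. Fewer genes are counted under the 2 filters by construction. No paired analysis was possible because each genotype has 1 array, and no array could be left out. Weak signal, under or near the array median, limits Ccl5 and Cxcl16.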

Other observations

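Genes that control chemokine transcription or transcript decay lay within 2-fold, as did most genes. Over all genes that passed, 3.06% were at least 2-fold higher and 2.33% lower, so this count does not set the list apart. Of 16 genes listed for NF-kB and transcript decay, 15 were measured and passed, none was past 2-fold in either direction and the median difference was -0.02, which turned to 0.03 after quantile or loess scaling. By the strongest probe set of each gene, the largest differences were below 0: Tnfaip3 (A20), an inhibitor of NF-kB induced by it, at -0.59, although its second probe set was at 0.24, and the cytokine gene Tnf at -0.49, with 8.78 on the KO array and 9.28 on the WT array. Nfkb2 was at -0.44, with its other probe set at 0.12. Nfkbia, the gene for the inhibitor IkB alpha and itself an NF-kB target, was higher in all 5 of its probe sets, from 0.42 to 0.58. Zc3h12a, which encodes the RNase regnase-1, differed by 0.24, and by 0.67 with a weaker probe set. Il1b differed by 0.08.

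Interferon targets included several genes above 0. Of 12 listed, 10 were measured and passed, 8 lay above 0 and the median was 0.25. None was past 2-fold by its strongest probe set, beside 3.06% of all genes higher and 2.33% lower. The GTPase genes Ifi47 and Gbp2 both differed by 0.89, Ifit1 by 0.75 and Ifit2 by 0.55, beside 0.94 for Cxcl10. A second probe set of Gbp2 was past 2-fold, at 1.44, and the 3 probe sets of Rsad2 ran from -0.91 to 0.06. The regulators Irf1 (-0.29) and Irf9 (-0.18) were below 0.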
